A study of Mus musculus with 4 samples.

Results

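Among the GABAergic neurons of the mouse bed nucleus of the stria terminalis (BNST), 188 met a rule built on Tac2. This is the gene for the neurokinin B precursor, and the 188 are called Tac2 neurons here. They were 188 of 2283 GABAergic neurons, of 4239 barcodes that passed quality limits and of 10200 barcodes in all. A barcode stands for 1 cell, and each UMI (unique molecular identifier) for 1 captured RNA molecule. The cells were chosen by their own UMI counts, so the genes used in the choice are no finding. Barcodes were kept from 400 genes upward, with mitochondrial transcripts making up no more than 10% of UMIs. It counted as a GABAergic neuron where Snap25, Syt1, Stmn2, Snhg11 and Meg3 together made up at least 0.6% of its UMIs and it held at least 1 UMI of Gad1, Gad2 or Slc32a1. A Tac2 neuron further had at least 1 Tac2 UMI, at least 2 UMIs of Tac2, Ebf1 and Spink8 together, and fewer than 2 of Cck, Greb1 and Frem3 together, genes of another GABAergic group of these samples.

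Tissue punches of the BNST from male wildtype C57BL/6J mice gave 4 Drop-seq libraries, each from 6 mice pooled. All 4 belong to 1 group, with no treatment, no transgene and no second genotype, and the labels call each library a batch. Every comparison is therefore between cells of the same library and not between mice. A pool of mice gives 1 value, so the spread between libraries holds both biology and preparation, and no value belongs to a single mouse.

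Tac2 is processed to neurokinin B, a tachykinin peptide that acts mainly on the receptor encoded by Tacr3. Ebf1 encodes a transcription factor of the early B-cell factor family that is used by developing striatal neurons and also by cells of the vessel wall. Spink8 encodes a serine protease inhibitor, Chst15 a chondroitin sulfate sulfotransferase, and Npy2r a receptor for neuropeptide Y. The BNST belongs to the extended amygdala, most of its neurons release GABA, and many carry peptides such as corticotropin releasing hormone (Crh), prodynorphin (Pdyn) or prepronociceptin (Pnoc), the gene that the series' title names.

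The genes that chose the cells are given as a description. In the GRCm38 annotation, Tac2 lies on chr10:127724478-127731768, plus strand, Ebf1 on chr11:44617317-45008091, plus strand, and Spink8 on chr9:109812280-109826633, plus strand. Tac2 had a median of 7.5 UMIs per Tac2 neuron and a highest value of 213. Its median was 9 UMIs in library 1, 10.5 in library 2, 4 in library 3 and 8 in library 4. Of the 188 cells, 58 held 1 to 3 Tac2 UMIs, 68 held 4 to 15 and 62 held 16 or more, so the group ran from cells at the limit to cells rich in the transcript. An Ebf1 UMI was found in 24 of the 188 cells (12.8%) and a Spink8 UMI in 29 (15.4%). Either gene was seen in 46 cells (24.5%), both in 7, and 142 cells entered on Tac2 alone. The other 2 genes listed for the group were seen in 36 cells (Chst15, 19.1%) and 42 cells (Npy2r, 22.3%). In other GABAergic neurons the shares were 6.73% and 15.5%. With cells of at least 1000 UMIs thinned to 1000, the mean Chst15 shares were 5.62% and 2.15%. The groups lay close without overlap, at 3.52% in the lowest Tac2 library and 3.24% in the highest of the others. They overlapped with the cells marked by a doublet caller removed (3.31% and 3.34%). The mean shares of Npy2r were 9.74% and 6.23%, with overlap. The label of Tac2 and Ebf1 neurons thus holds for Tac2 in every cell and for Ebf1 in a minority at this depth, and the cells are named after Tac2 only.

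**Figure D1:**
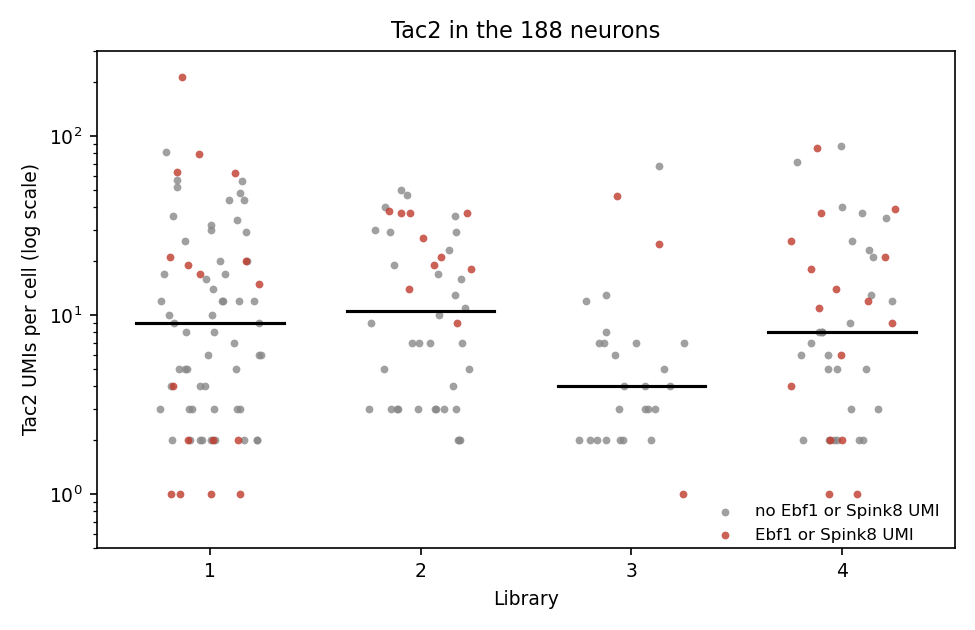
Tac2 UMIs per cell (log scale) in each of the 188 Tac2 neurons, by library, with red points for cells that also held an Ebf1 or Spink8 UMI and a black line at the library median. Medians lay between 4 and 10.5 UMIs, and the red points were spread over the whole range of Tac2.

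Summed over the Tac2 neurons of a library and scaled to the same total in every sum (CPM), Ebf1 stood at 79.7, 18.8, 87.9 and 169 CPM in libraries 1 to 4. In a sum, fewer cells of a kind and less RNA per cell cannot be told apart. In the other 2095 GABAergic neurons it stood at 20.4, 17, 10.1 and 13.2 CPM. Spink8 stood at 38.8, 65.8, 29.3 and 175 CPM in Tac2 neurons. For Ebf1, library 2 of the Tac2 neurons lay within the range of the other GABAergic neurons. Around the limit of the rule, 27 Tac2 neurons had exactly 2 UMIs of the 3 genes, and 44 other GABAergic neurons held 1 Tac2 UMI with neither Ebf1 nor Spink8. In all, 51 other GABAergic neurons held a Tac2 UMI, with 212 Tac2 UMIs together and a highest value of 139 in a single cell. Only 5 GABAergic neurons were kept out by Cck, Greb1 and Frem3 alone.

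Tac2 neurons made up 10.1%, 9.34%, 6.73% and 6.38% of the GABAergic neurons of libraries 1 to 4, from 73, 44, 27 and 44 cells (mean 8.14% ± 1.87, SD, n = 4). Exact 95% binomial intervals, which cover counting error only, ran from 8.02 to 12.6% in library 1 and from 4.67 to 8.47% in library 4. Those 2 libraries overlapped by their intervals. With at least 10 Tac2 UMIs required, the mean share was 3.43%. With an Ebf1 or Spink8 UMI required, it was 1.89%.

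Library totals ran from 2640399 to 5652342 UMIs, and Tac2 neurons held 102368 to 464072 of them per library. Tac2 neurons were deeper than the other GABAergic neurons, with medians of 4530 and 3274 UMIs, and the UMI minimum of the rule itself favours deep cells. In library 3 the medians were close, at 3035 and 2990.5 UMIs. The Cck and Greb1 neurons and the Crh and Wif1 neurons, compared below, were deeper still, with medians of 5929.5 and 5129 UMIs. No kept barcode occurred in more than 1 library. A doublet caller marked 4 of the 188 cells, and 2 pairs of barcodes within a library differed at no more than 1 base. For the vessel wall, where Ebf1 is also used, 10 mural cell markers were checked. Kcnj8, Abcc9, Higd1b and Ndufa4l2 had no UMI in any Tac2 neuron. The 10 together had 11 UMIs and ran from 0 to 37.6 CPM, with the highest value in library 2, against 4.4 to 9.29 CPM in the other GABAergic neurons and 291 to 641 CPM in barcodes that were not neurons. Microglial markers were at 0 for 7 of 8 genes.

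Promoter sequence is shown for Tac2, which defines the cells, and for Vip and Sst, peptide genes that were higher and lower than in other GABAergic neurons in every library. Each window runs from 250 bases before to 50 after the start of the gene, 5′ to 3′ on the gene's strand, and comes from RefSeq on GRCm38.p6. Capitals mark TGACGTCA, the full cyclic AMP response element, and the palindrome of the early B-cell factors, which is TCCC and GGGA with any 2 bases between them. Both strands were searched. Tac2 (chr10:127724228-127724527, plus strand) held neither, Vip (chr10:5638968-5639267, plus strand) held the second and Sst (chr16:23890795-23891094, minus strand) held the first.
Tac2: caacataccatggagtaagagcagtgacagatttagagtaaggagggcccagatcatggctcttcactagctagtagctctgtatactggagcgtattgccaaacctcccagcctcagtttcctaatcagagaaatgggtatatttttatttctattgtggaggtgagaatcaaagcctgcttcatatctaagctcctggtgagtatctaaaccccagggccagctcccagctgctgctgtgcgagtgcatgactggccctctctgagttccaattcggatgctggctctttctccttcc
Vip: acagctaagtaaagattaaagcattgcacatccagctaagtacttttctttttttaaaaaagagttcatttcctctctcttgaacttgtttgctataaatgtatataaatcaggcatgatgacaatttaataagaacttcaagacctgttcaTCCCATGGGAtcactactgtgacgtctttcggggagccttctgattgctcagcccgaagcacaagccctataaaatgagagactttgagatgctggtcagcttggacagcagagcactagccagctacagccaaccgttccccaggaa
Sst: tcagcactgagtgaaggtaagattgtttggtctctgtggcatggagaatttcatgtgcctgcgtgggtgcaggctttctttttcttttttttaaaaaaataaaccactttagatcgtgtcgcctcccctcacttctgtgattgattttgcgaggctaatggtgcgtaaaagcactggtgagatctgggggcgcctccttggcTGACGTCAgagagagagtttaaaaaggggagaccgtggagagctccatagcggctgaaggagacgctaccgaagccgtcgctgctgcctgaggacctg
Windows were found for 8 of 11 peptide genes, namely Tac2 and the 10 whose sums differed between Tac2 neurons and the other GABAergic neurons below, with none for Crh, Penk and Pnoc. The response element was present in 2 of the 8 (Cartpt and Sst) and in 1.79% of all 32851 windows, and the palindrome in 1 of the 8 (Vip) and in 0.904% of all windows. The counts of the 8 are genes with a match in any of their windows, while the percentages are of single windows, so they are not on the same scale. A match describes letters in the window and not a bound site.

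Tac2 neurons differed from other GABAergic neurons in peptide genes, transcription factors and genes of other groups. Crh was higher in the Tac2 neurons of every library, Vip and Pdyn were higher too, and Npy and Sst were much lower. UMIs were summed per library over each group and compared with edgeR's quasi-likelihood test, with library as a block. Benjamini-Hochberg adjustment ran over all 9021 genes tested, and the threshold was an adjusted p of 0.05. Of these genes 205 passed (2.27%), 104 higher (1.15%) and 101 lower (1.12%), and 187 of them moved the same way in all 4 libraries. The median log2 difference over all tested genes was -0.01. No gene used by the rule was tested, nor were Chst15 and Npy2r. Members were picked for markers that came from these same cells, so the tests bear on the genes that the rule left out and not on new cells.

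Among 22 neuropeptide precursor genes 13 could be tested besides those of the rule. Of these 6 rose and 4 fell, with a median log2 difference of 0.60, where 1.15% of all tested genes passed as higher and 1.12% as lower. Crh, which encodes corticotropin releasing hormone (GRCm38 chr3:19693401-19695396, minus strand), stood at 709, 1174, 1768 and 879 CPM in the Tac2 neurons of libraries 1 to 4. It stood at 152, 156, 231 and 215 CPM in other GABAergic neurons. The groups did not overlap, and the log2 difference was 2.53 ± 0.11 (SE), with an edgeR adjusted p of 2.2e-20. A Crh UMI was seen in 85 of 188 Tac2 neurons (45.2%) and in 9.93% of the others. With each cell thinned to 1000 UMIs, which removes the difference in depth, the mean shares were 39.3% and 6.47%, against 1.08% in barcodes that were not neurons. Crh was thus a transcript of about 4 in 10 Tac2 neurons at equal depth.

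Pdyn, the precursor of dynorphins, was at 62.5, 230.2, 107 and 124 CPM in Tac2 neurons against 38.4, 28.6, 35.3 and 43.5 CPM in the others. The lowest Tac2 library was above the highest of the others, and the log2 difference was 1.72 ± 0.25 (SE, edgeR adjusted p = 1.2e-05). A Pdyn UMI was seen in 43 Tac2 neurons, and 27 of those 43 also had Crh. Vip, the gene of vasoactive intestinal peptide, had the largest rise among genes with at least 20 UMIs, at 64.6, 207, 332 and 101 CPM against 0.31, 14.6, 14.4 and 1.1 CPM (log2 difference 4.73 ± 0.31, SE, edgeR adjusted p = 2.8e-14). This rise came from few cells. Only 10 Tac2 neurons held a Vip UMI, 8 of them also held Crh, and 5 cells held 94.4% of the 126 UMIs.

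Npy, the gene of neuropeptide Y, was nearly missing from Tac2 neurons. It had 2 UMIs in 956873, both in library 1, against 323 to 1026 CPM in the other GABAergic neurons. The ratio of other to Tac2 neurons was 321, with an exact 95% counting interval from 88.7 to 2648. Sst, the gene of somatostatin, stood at 92.7, 103, 29.3 and 95.8 CPM in Tac2 neurons and at 1058, 442, 400.5 and 1905 CPM in the others, a log2 difference of -3.45 ± 0.16 (SE, edgeR adjusted p = 2.6e-19). Its remaining UMIs sat in 12 Tac2 neurons, 83.5% of them in 5 cells.

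The other peptide differences were smaller and less even between libraries. Penk, the proenkephalin gene, was lower in 4 of 4 libraries, at 534, 521, 117 and 434 CPM against 577, 725, 613 and 976 CPM. Its log2 difference was -0.66 ± 0.13 (SE, edgeR adjusted p = 0.0018), which was not past the threshold without library 4 (0.18), in depth-matched cells (0.083), with DESeq2 (0.98) or without the library block (0.49). For members with an Ebf1 or Spink8 UMI the log2 difference was -0.011 (edgeR adjusted p = 0.997), and without members with Crh and Wif1 it was -0.25 (0.44). Nts, the neurotensin gene, was called higher (log2 difference 0.60) with 3 of 4 libraries higher, and without library 4, at 901 CPM, the edgeR adjusted p was 0.61. Cartpt, the gene of the CART peptide, was called lower (log2 difference -0.68) with 3 of 4 libraries lower. It lost the call with the Cck and Greb1 neurons taken out of the comparison cells (edgeR adjusted p = 0.89), without library 2 (0.23) or without library 4 (0.11). Gal, the galanin gene, was called higher although 2 libraries were higher and 2 lower. Its values in Tac2 neurons were 453, 991, 0 and 16.9 CPM, 5 cells held 94.3% of its UMIs, and the call was lost without library 1 or without library 2 (edgeR adjusted p = 0.12 and 0.15). Nts, Cartpt and Gal were also not past the threshold without the library block (edgeR adjusted p = 0.76, 0.83 and 0.95) or with DESeq2.

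The summed level of Pnoc (chr14:65400673-65425472, minus strand) did not separate Tac2 neurons from other GABAergic neurons in a steady way. Its level was 261, 127, 117 and 332 CPM in Tac2 neurons and 153, 154, 130.4 and 119 CPM in the others, so that libraries 1 and 4 were higher and libraries 2 and 3 lower. The pooled model gave a log2 difference of 0.66 ± 0.16 (SE) and an edgeR adjusted p of 0.017. The exact two-sided sign-flip permutation over the 4 library differences gave p = 0.5. The adjusted p was 0.26 without library 1, 0.48 without library 4 and 0.83 with the comparison cells matched one to one by total UMIs, where the log2 difference was 0.18. A Pnoc UMI was seen in 59 Tac2 neurons (31.4%) and in 19.3% of the others. At 1000 UMIs per cell the mean shares were 13.5% ± 6.17 (SD, n = 4) and 9.27%, against 0.71% in barcodes that were not neurons. The share was higher in 2 of 4 libraries at that depth. At 2000 UMIs per cell, which left out 44 Tac2 neurons, the mean shares were 24.1% ± 9.11 (SD, n = 4) and 15.97%. There the share was higher in 4 of 4 libraries, with overlap between the groups. Oprl1, the receptor gene for the Pnoc product, was lower in 4 of 4 libraries but not past the threshold (log2 difference -0.38 ± 0.23, SE, edgeR adjusted p = 0.60).

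Tac1, the other tachykinin precursor gene, did not pass the threshold (log2 difference 0.76 ± 0.26, SE, edgeR adjusted p = 0.15). It stood at 144 CPM in library 1 of the Tac2 neurons and at 597, 664 and 653 CPM in libraries 2 to 4, against 147 to 403 CPM in the others. Library 1 was below its comparison cells and the other 3 were above theirs. Without library 1 the log2 difference was 1.63 and the adjusted p 4.4e-14. The tachykinin receptor genes were sparse in Tac2 neurons: Tacr3 was seen in 9 cells and Tacr1 in 11, with log2 differences of 0.84 ± 0.44 and 0.10 ± 0.43 (SE) that did not pass (edgeR adjusted p = 0.48 and 0.99). Of 11 genes tested in the peptide receptor list, only Crhbp passed, as lower, where 1.12% of all tested genes passed as lower. Crhbp is no receptor gene. It encodes the binding protein of corticotropin releasing hormone, and it had 4 UMIs in Tac2 neurons against 30.4 to 48.3 CPM in the others (log2 difference -3.12 ± 0.51, SE, edgeR adjusted p = 0.000105).

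**Figure D2:**
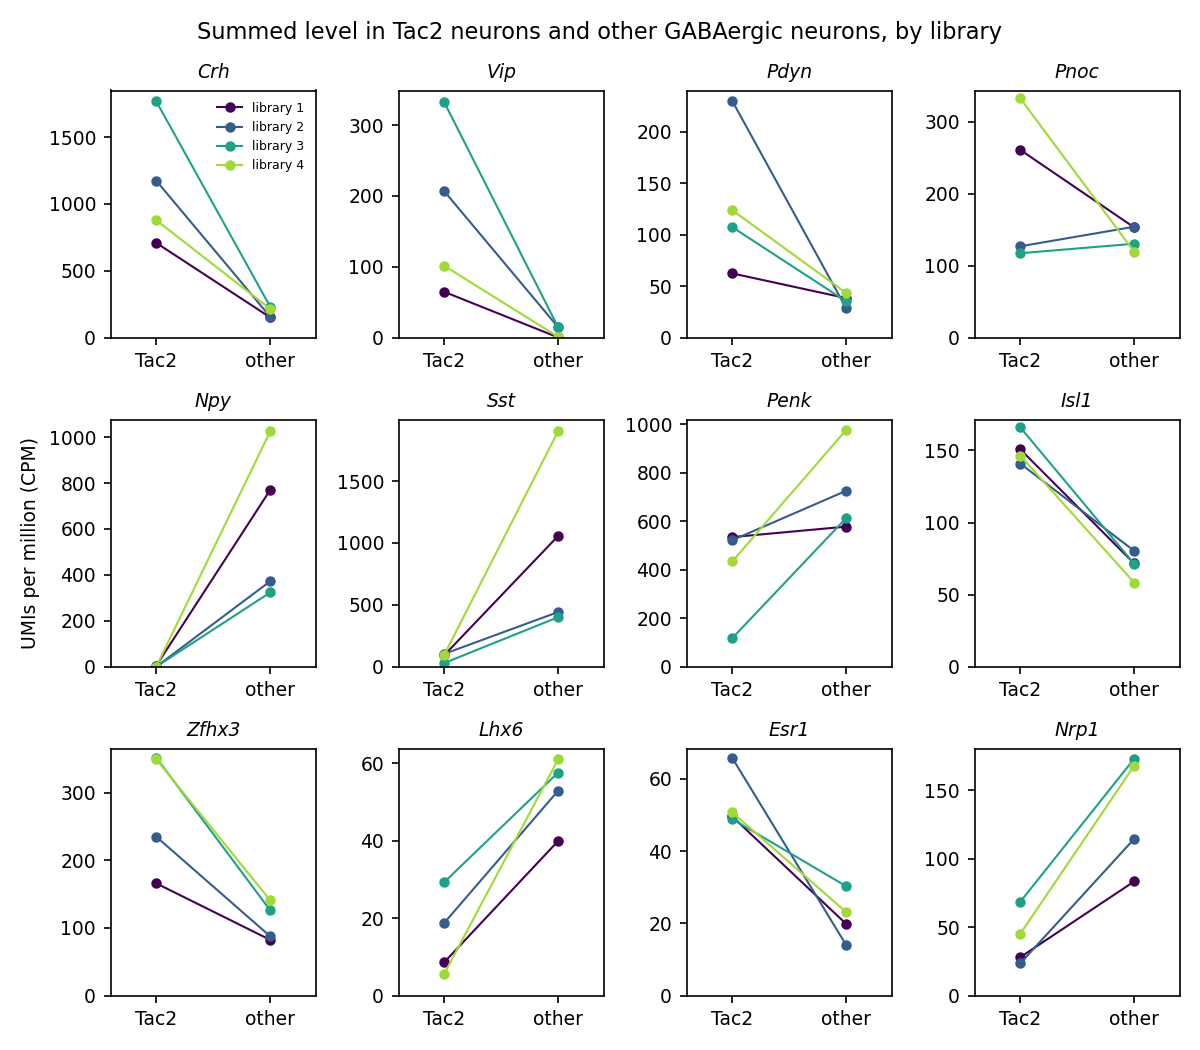
Level in CPM (axes start at 0 and differ between panels) of 12 genes in Tac2 neurons (left) and other GABAergic neurons (right), 1 line per library. Lines for Crh, Vip, Pdyn, Isl1, Zfhx3 and Esr1 all fall to the right, those for Npy, Sst, Penk, Lhx6 and Nrp1 all rise, and those for Pnoc cross.

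Of 13 granin and processing genes of the peptide secretion machinery tested, 3 rose and 1 fell, where 2.27% of all tested genes passed in either direction. Their median log2 difference was 0.11. The largest was Cadps2, which encodes a priming factor of dense core vesicles, at 181, 150.3, 274 and 214 CPM against 83.3, 80.3, 139 and 89.1 CPM (log2 difference 1.09 ± 0.14, SE, edgeR adjusted p = 1.1e-06). All 4 Tac2 libraries were above all 4 others. Cpe and Scg2 were higher by 0.39 and 0.27 on the log2 scale, and Pcsk1n fell by 0.25.

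Transcription factors were grouped by the ganglionic eminence with which they are associated in development. Over all tested genes, 1.15% passed as higher and 1.12% as lower. Of 12 tested factors of the lateral ganglionic eminence, which gives rise to striatal projection neurons, 4 rose (Isl1, Bcl11b, Zfhx3, Zfhx4) and 4 fell (Foxp1, Foxp2, Six3, Pbx3), with a median log2 difference of 0.14. Isl1 was at 151, 141, 166 and 146 CPM against 71.6, 80.3, 71.3 and 58.3 CPM (log2 difference 1.10 ± 0.16, SE, edgeR adjusted p = 1.6e-05). Zfhx3 was at 166, 235, 352 and 349 CPM against 82.4, 87.6, 126 and 141 CPM (log2 difference 1.29 ± 0.13, SE, edgeR adjusted p = 6.0e-09), and Zfhx4 was higher by 1.12. Neither Isl1 nor Zfhx3 overlapped between the groups, but neither they nor Zfhx4 were called against the Crh and Wif1 neurons compared below. The Bcl11b difference was smaller (0.53) and was not past the threshold with the Cck and Greb1 neurons left out of the comparison (edgeR adjusted p = 0.16), without library 4 (0.21), without the library block (0.70) or with DESeq2 (0.094). Six3 stood at 38.8, 28.2, 39.1 and 11.3 CPM against 71.2 to 130.4 CPM (log2 difference -1.47), and its exons overlap those of an antisense gene.

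Among factors of the medial ganglionic eminence none rose, and Lhx6 fell. Lhx6, which marks somatostatin and parvalbumin interneurons, was at 8.62, 18.8, 29.3 and 5.63 CPM against 40, 52.9, 57.6 and 61.1 CPM (log2 difference -1.92 ± 0.36, SE, edgeR adjusted p = 0.000605), with no overlap. None of 3 caudal ganglionic eminence factors passed. Of 16 other factors, Dlx6 rose and Lmo3, Lmo4, Tcf4 and Rorb fell, where 2.27% of all tested genes passed in either direction. Lmo4 was at 101 to 117 CPM in Tac2 neurons and 238 to 285 CPM in the others. Outside the lists, the 10 largest rises held the POU factor gene Pou3f2 (log2 difference 1.90 ± 0.23, SE, edgeR adjusted p = 2.4e-07) and the kinase gene Stk32a (1.80 ± 0.28, 2.8e-05). The others of those 10 were Otof, which encodes otoferlin, Cbln2, a synaptic organiser gene, Dnah5, a dynein gene, Asb4 and the phosphodiesterase gene Pde11a, with log2 differences from 1.63 to 1.83.

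Among amine and cannabinoid receptors 11 were tested, of which 4 rose and 1 fell, against the 1.15% and 1.12% of all genes. The serotonin receptor genes Htr1b and Htr7 were higher by 1.50 and 1.16 on the log2 scale, and Htr2c fell by 0.78. Cnr1, the cannabinoid receptor gene, was at 123, 122, 205 and 169 CPM against 67.5, 78.5, 141 and 86.4 CPM (log2 difference 0.79 ± 0.16, SE, edgeR adjusted p = 0.0014). It was higher in each library, with overlap between the groups through library 3 of the others. Adra1b, an adrenergic receptor gene, was higher by 1.44 from 30 UMIs in 24 cells. This list went from 5 calls to 2 without library 1 or without library 4, and to 3 without library 3.

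Among steroid receptor and synthesis genes none fell, and Esr1 rose. Esr1, the gene of estrogen receptor alpha, was at 49.6, 65.8, 48.8 and 50.7 CPM against 19.8, 14, 30.3 and 23.1 CPM (log2 difference 1.40 ± 0.29, SE, edgeR adjusted p = 0.0021). The groups did not overlap, but Esr1 was seen in 22 Tac2 neurons only and 5 cells held 43.1% of its UMIs.

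Channel genes passed at a share near the 2.27% of all tested genes. None of 26 potassium channel genes passed (median log2 difference -0.03), and of 29 calcium, sodium and HCN channel genes Cacna2d3 and Scn3a fell. Among receptors for fast transmitters, Gabra5 and Gria3 rose, and Grik1 and Grm5 fell, out of 14 GABA and 19 glutamate receptor genes. Grm5 was at 121, 79.8, 225 and 203 CPM against 252, 284, 475 and 441 CPM. No striatal projection neuron gene passed of 13 tested, and none passed of 17 chondroitin sulfate and matrix genes, the list to which Chst15 is closest. Beside that share, the lists without a call show nothing particular to Tac2 neurons. The GABA and glutamate receptor genes passed at larger shares, from few genes. The edgeR test gave 1030 genes of 9021 at an unadjusted p under 0.05, and DESeq2 called 94.

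Of 58 adhesion and guidance genes, 3 rose (Pcdh17, Sema3a, Cntnap4) and 5 fell (Cdh13, Pcdh8, Nrp1, Efnb3, Nxph1). Beside this and the next counts, 1.15% of all tested genes passed as higher and 1.12% as lower. Nrp1, a receptor for semaphorins, was at 28, 23.5, 68.4 and 45.1 CPM against 83.3, 114, 173 and 168 CPM (log2 difference -1.72 ± 0.22, SE, edgeR adjusted p = 6.7e-07). All 4 Tac2 libraries were lower than all 4 others. Among 39 signalling genes 4 rose and 4 fell, led by Rgs10, a regulator of G protein signalling (log2 difference 1.12 ± 0.11, SE, edgeR adjusted p = 5.8e-09). Of 14 imprinted genes, Asb4 rose and Dlk1 and Nnat fell, and Dlk1 was at 71.1, 103, 58.6 and 124 CPM against 262 to 520.3 CPM. Nefm, a neurofilament gene, was higher by 1.26, and Nos1 and Chodl, which mark long-range interneurons, fell. Nos1 was at 12.9, 9.39, 9.77 and 5.63 CPM against 34.7 to 83.6 CPM. Nefm overlaps Nefl on the opposite strand, and the counting strand is not given in the sources used here, so their reads cannot be told apart with certainty.

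The 11 immediate early genes tested had a median log2 difference of 0.76, against -0.01 over all tested genes. Fos was the only gene of the 11 called, where 1.15% of all tested genes passed as higher. It was at 25.9, 98.6, 439.6 and 186 CPM in Tac2 neurons against 35, 64.5, 106 and 94.6 CPM, lower in library 1 and higher in the other 3. Its edgeR adjusted p was 0.31 without library 3, 0.11 without library 4, 0.76 without the library block, 0.78 for members with an Ebf1 or Spink8 UMI and 0.93 without members with Crh and Wif1. DESeq2 gave an adjusted p of 0.16.

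Markers of other cells moved along with these genes. The vesicular glutamate transporter genes Slc17a8 and Slc17a6 had no UMI in Tac2 neurons, at least 19.1-fold and 8.06-fold lower than in the other GABAergic neurons with a floor of 3 UMIs over the 188 cells. Their comparison cells therefore include barcodes with glutamatergic transcripts, 120 of 2095 for Slc17a8 and 42 for Slc17a6. The 8 oligodendrocyte markers together were at 132 to 391 CPM in Tac2 neurons and 285 to 1392 CPM in the others. Mal and Ptgds, 2 of the 10 largest falls, are also genes of oligodendrocytes or of the meninges. The 8 astrocyte markers together were higher in Tac2 neurons, at 472 to 648 CPM against 248 to 313 CPM, with Aldoc higher by 1.10 and Gfap at 0. The part of oligodendrocyte and astrocyte RNA in the differences above was not tested.

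A pair of GABAergic sets was then compared with Tac2 neurons, 1 set at a time. The first were the 178 Cck and Greb1 neurons, with at least 2 UMIs of Cck, Greb1 and Frem3, which the rule keeps out of the Tac2 neurons. Of 4244 genes tested with edgeR, 258 passed (6.08%), 108 higher in Tac2 neurons (2.54%) and 150 lower (3.53%), with a median log2 difference of 0.00057. The best separated were Crh and a set of lateral eminence factors, higher in Tac2 neurons, and Lhx6, Nr2f2, Npy and Cartpt, lower in them. Crh was at 1.99, 13, 51.7 and 67.9 CPM in the Cck and Greb1 neurons (log2 difference 5.34 ± 0.25, SE, edgeR adjusted p = 1.3e-14). Of 6 lateral eminence factors tested, 5 were higher (Meis2, Isl1, Bcl11b, Zfhx3, Zfhx4) and none lower, with a median of 2.61.

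Bcl11b stood at 157, 244, 352 and 394 CPM in Tac2 neurons and at 29.8, 19.5, 13.8 and 0 CPM in Cck and Greb1 neurons (log2 difference 3.65 ± 0.33, SE, edgeR adjusted p = 1.1e-08). Nr2f2, a nuclear receptor gene of the caudal eminence, was at 119, 155, 87.9 and 84.5 CPM against 368, 285, 531 and 574 CPM (log2 difference -1.83 ± 0.20, SE, edgeR adjusted p = 2.4e-07), and its exons overlap an antisense gene. Pnoc was lower in Tac2 neurons in 4 of 4 libraries here, at 261, 127, 117 and 332 CPM against 270.4, 383, 397 and 432 CPM. Its log2 difference was -0.68 ± 0.20 (SE, edgeR adjusted p = 0.032), opposite in sign to that against all other GABAergic neurons. Cartpt fell by 2.33, and Penk was higher by 1.74. Of 35 adhesion and guidance genes, Epha4 was higher and 8 were lower, where 2.54% of all tested genes passed as higher and 3.53% as lower.

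The second were 140 Crh and Wif1 neurons, which had at least 2 UMIs of Crh and Wif1, no Tac2 UMI and fewer than 2 UMIs of Cck, Greb1 and Frem3. Of 4017 genes 122 passed with edgeR (3.04%), 80 higher in Tac2 neurons (1.99%) and 42 lower (1.05%), with a median log2 difference of -0.0039. Crh and Wif1 chose these cells and were not tested. Tac1 was at 144, 597, 664 and 653 CPM in Tac2 neurons against 89.8, 35.9, 202 and 26.1 CPM, higher in each library (log2 difference 2.36 ± 0.25, SE, edgeR adjusted p = 8.5e-10). Pnoc was at 37.1, 101, 65.1 and 93.8 CPM in Crh and Wif1 neurons, below every Tac2 library (log2 difference 1.72 ± 0.25, SE, edgeR adjusted p = 1.3e-06). Pdyn and Vip were the other peptide genes that passed, of 9 tested, and no peptide gene was lower. Of 7 lateral eminence factors tested, Meis2 and Bcl11b were higher and none lower, with a median log2 difference of 0.20. Isl1, Zfhx3 and Zfhx4 were not called here.

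Dlk1 separated the same 2 sets most among lower genes, at 71.1, 103, 58.6 and 124 CPM in Tac2 neurons against 470.4, 848, 755 and 865 CPM (log2 difference -2.92 ± 0.17, SE, edgeR adjusted p = 2.2e-20). Nrp1, Dgkk, Slit2 and As3mt followed, with log2 differences from -2.22 to -2.08. Otof, Synpr and Pcp4l1 were higher by 2.71, 2.35 and 2.25. Jun, Junb and Egr1 were higher, 3 of 4 immediate early genes tested, where 1.99% of all tested genes passed as higher. Egr1 was at 73.3, 146, 528 and 276 CPM in Tac2 neurons against 37.1, 57.5, 143 and 88.6 CPM. Slc1a2, an astrocyte transporter gene, was higher by 1.40 as well, and its part in the result was not tested.

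The 3 comparisons share the Tac2 neurons, so their values are set side by side and not as separate support. For Rgs10 the log2 differences were 1.12 against all others, 1.56 against Cck and Greb1 neurons and 0.63 against Crh and Wif1 neurons. For Dlk1 they were -2.04, -1.03 and -2.92, in the same order. Pnoc and Penk changed sign with the comparison cells: for Penk the log2 differences were -0.66 against all others, 1.74 against Cck and Greb1 neurons and -0.19 against Crh and Wif1 neurons, the last not past the threshold.

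**Figure D3:**
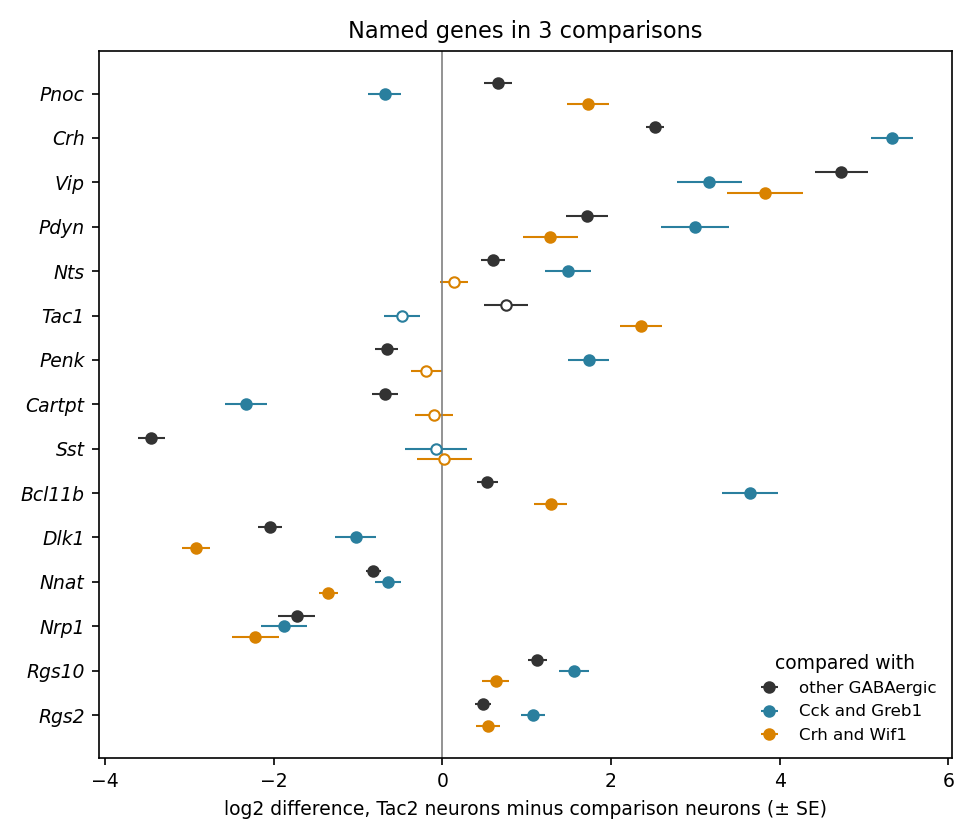
Log2 difference with its SE (x axis) of 15 genes between Tac2 neurons and each of 3 sets of comparison neurons, with filled points past an edgeR adjusted p of 0.05 and open points not past it. Nrp1, Dlk1 and Nnat lie left of 0 and Rgs10 and Rgs2 right of 0 in all 3 sets, while Pnoc lies at 0.66, -0.68 and 1.72.

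The Tac2 neurons were not uniform. Cells with and without an Ebf1 or Spink8 UMI were compared in libraries 1, 2 and 4 (43 and 118 cells); library 3 was left out because only 3 of its cells had such a UMI. Of 3073 genes tested with edgeR 26 passed (0.846%), 19 higher in the cells with Ebf1 or Spink8 (0.618%) and 7 lower (0.228%). Dlx1 and Nr2f2 were all but missing from cells with Ebf1 or Spink8. Dlx1, a homeobox gene of GABAergic precursors, had no UMI there and stood at 204, 259 and 146 CPM in the cells without (at least 20-fold lower, edgeR adjusted p = 0.000105). Nr2f2 had 1 UMI there and stood at 172, 219 and 146 CPM in the cells without (edgeR adjusted p = 0.000157), a ratio of 51.8 with an exact 95% counting interval from 9.09 to 2066.

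Over all 4 libraries, a Dlx1 UMI was seen in 0 of 46 cells with Ebf1 or Spink8 (exact 95% upper bound 7.71%) and in 49 of 142 without (34.5%). For Nr2f2 the counts were 1 of 46 and 39 of 142. The cells with Ebf1 or Spink8 were the deeper ones, with medians of 5614 and 4117 UMIs. Bcl11b ran the other way, in 36 of 46 cells (78.3%) and 40 of 142 (28.2%), at 252, 418 and 643 CPM against 112, 173 and 214 CPM (log2 difference 1.34 ± 0.23, SE, edgeR adjusted p = 0.0057). No Tac2 neuron held both: of the 40 with an Nr2f2 UMI, 0 had a Bcl11b UMI.

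Of 7 striatal projection neuron genes tested here, 3 were higher in the cells with Ebf1 or Spink8 (Crym, Ppp1r1b and Arpp21). Over all genes tested, 0.618% passed as higher. The median log2 difference of the 7 was 0.83, against -0.02 over all genes tested. Crym, which encodes a thyroid hormone binding protein, was at 139, 80.4 and 93.7 CPM against 19.2, 26.5 and 9.72 CPM, without overlap (log2 difference 2.52 ± 0.48, SE, edgeR adjusted p = 0.015). Gpr101, Icam5 and Necab1 were the other genes among the 5 largest rises, and Vip, Gpx3 and Sparcl1 among the 5 largest falls. Vip was in 1 of 46 cells with Ebf1 or Spink8 and in 9 of 142 without. The peptide genes Crh, Pdyn, Pnoc, Nts, Penk and Tac1 did not pass between the 2 subsets, and Crh was in 26 of 46 and 59 of 142 cells. These calls rest on few cells: 8 genes passed with at least 800 genes per barcode, 7 without library 2, 5 without the cells that held Vip, and 2 with DESeq2.

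**Figure D4:**
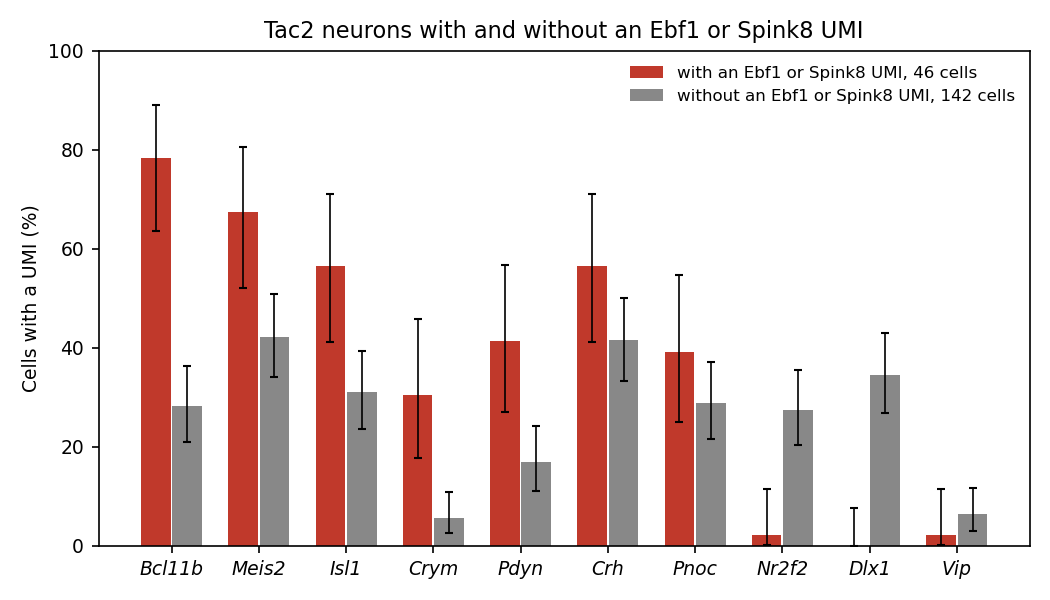
Share of Tac2 neurons with a UMI of each gene (bars, % of cells, axis from 0) among 46 cells with and 142 without an Ebf1 or Spink8 UMI, with exact 95% binomial intervals that cover counting error only. Bcl11b stands at 78.3% and 28.2%, and Dlx1 at 0 and 34.5%.

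A second axis was Crh. Crh and Wif1 together reached 2 UMIs in 75 of the 188 Tac2 neurons (39.9%), in 26 of 46 with Ebf1 or Spink8 and 49 of 142 without. Among those 75, Pdyn was seen in 27, Tac1 in 24 and Nts in 19; among the other 113, in 16, 15 and 16. Penk went the other way, in 11 of 75 and 31 of 113, and so did Nr2f2, in 8 of 75 and 32 of 113. Median depth was 4462 and 4673 UMIs, in that order. With the 75 cells left out, Tac2 neurons differed from other GABAergic neurons by 0.49 for Pdyn (edgeR adjusted p = 0.75), -0.11 for Nts (0.93), -0.15 for Bcl11b (0.92) and -1.53 for Tac1 (3.1e-12). Leaving these cells out lowers Crh by construction, to -3.34. In all, 157 of the 188 cells held a UMI of at least 1 of Crh, Vip, Pdyn, Nts, Penk, Tac1, Cartpt and Pnoc.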

How the data were processed

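Drop-seq UMI counts were measured in 4 libraries of pooled mice, with 5652342, 2762405, 2640399 and 2962880 UMIs. The deposited tables hold raw UMI counts per gene and barcode, per the file headers. The submitters' processing notes name bcl2fastq 2.18.0.12, STAR 2.4.2a, Picard 2.2.4 and the builds mm10 and GRCm38. The counting tool, the annotation and the strand used are not given in the sources used here, so genes that overlap on opposite strands (Penk, Htr1b, Six3, Dlx6, Nefm, Gabra5, Gnas, Nnat, Nr2f2, Arpp21, Junb, Slc1a2, Icam5, Necab1, Ppp1r1b, Kcnip4) are uncertain. Positions come from GENCODE vM21, which held 18830 of the 20136 names (93.5%), and promoters from RefSeq.

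UMIs were summed per library and class, and edgeR 4.0.16 in R 4.3.3 (TMM, its default low-count filter, quasi-likelihood test) was fitted with library as a block, because the sums compared within a library share their mice and preparation. P-values rest on how the within-library differences vary between libraries, with dispersion estimates that borrow from all genes. A gene could pass although its libraries differed in direction, as Pnoc and Gal did. The 4 libraries cannot reach p = 0.05 in the exact sign-flip test. Alternatives used DESeq2 1.42.0, other cell limits, depth matching, thinning, Scrublet calls (scanpy 1.11.5, expected rate 0.05; 58 of 4239 barcodes) and each library left out. Doublets were otherwise kept. A floor for a count of 0 is 3 UMIs over the group, and intervals cover counting error only.

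Members and gene lists were chosen with earlier results of these data known, and the genes of the rule led a cluster of these same cells. Genes named are those of the rule, Pnoc, Oprl1, Tacr3 and Tacr1, the 10 largest rises and falls of the first comparison (5 in the others) with an adjusted p under 0.05, at least 20 UMIs and the same direction in all libraries, and list genes past the threshold. Other peptide genes and a few list members are given beside them, chosen after their values were seen. A few genes that the rule names are not reported here. Tested on simulated data with 200 genes changed 2-fold, the step recovered 71.5% of them for the comparison with other GABAergic neurons (8840 genes), 73% for Cck and Greb1 neurons (4023 genes), 74% for Crh and Wif1 neurons (3800 genes) and 47.5% for the split by Ebf1 or Spink8 (2787 genes). Wrong calls made up 2.72%, 5.81%, 3.9% and 3.06% of the calls, in that order. The simulated counts had the same dispersion for every gene of a comparison, so genes carried by few cells were not imitated. These shares are therefore not error rates of the calls above.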

Additional observations from a re-analysis of the deposited data

Results flagged for a closer look

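Within-library differences between Tac2 neurons and other GABAergic neurons were searched for 1 library far from the other 3, in log2(CPM + 1). Chance gives about 1 such set in 20, and 4 of 82 sets had one, against 4.1 expected. Stk32a differed by 1.49 in library 1 and by 1.86 to 1.88 in the others. Six3 differed by -3.42 in library 4 and by -0.97 to -1.31 in the others. Grm5 differed by -1.82 in library 2 and by -1.06 to -1.12 in the others. Cacna2d3 differed by -0.29 in library 3 and by -1.88 to -2.11 in the others.

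Tac2 was also seen outside the neurons of the report. Of 1750 kept barcodes below the limit on neuron genes, 6 held at least 2 Tac2 UMIs. The 3 of these in library 1 held 31, 54 and 139 Tac2 UMIs, 30 to 40 UMIs of Gad1, Gad2 and Slc32a1, and neuron genes at 0.44% to 0.57% of their UMIs, just under the limit of 0.6%.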

How the results depend on the processing

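The alternatives that took members with at least 10 Tac2 UMIs, or left out members with Crh and Wif1, members with Vip or cells above 10000 UMIs, were chosen after seeing the data. Against other GABAergic neurons, 205 genes passed with edgeR. DESeq2 called 94, the fit without library as a replicate block 51, the 5% mitochondrial limit 132, members with an Ebf1 or Spink8 UMI 129, depth-matched cells 94 and cells thinned to 3000 UMIs 107. Leaving out 1 library gave 112 (without library 4) to 209. Of 83 genes named in it, 21 kept direction and side of the threshold under every alternative and 9 reversed under at least 1. The cause was not tested for any of these changes, except that smaller sets hold fewer cells.

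For Pnoc, the log2 difference of 0.66 was not past the threshold with DESeq2 (0.57), without the replicate block (0.66), for members with Ebf1 or Spink8 (0.50), in depth-matched cells (0.18), in thinned cells (0.65) and at 10 Tac2 UMIs (0.40). Leaving out 1 library gave 0.39 to 0.90. Leaving out members with Crh and Wif1 gave -3.34 for Crh, by construction, -0.11 for Nts, -0.15 for Bcl11b, -1.53 for Tac1 and -0.20 for Tacr1. Tacr1 was at -0.35 with neuron genes at 1%, at -0.71 for members with Ebf1 or Spink8 and ran from -0.089 to 0.28 with 1 library left out. Gal was at -0.74 with DESeq2, -11.0 for members with Ebf1 or Spink8 (a fitted value that is no bound, since these members held 0 Gal UMIs), -0.14 at 10 Tac2 UMIs and -0.20 without members with Vip. Adra1b was at -0.30 and Esr1 at -0.19 for members with Ebf1 or Spink8, and Pde1c at -0.18 at 10 Tac2 UMIs.

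Against Cck and Greb1 neurons, the 258 genes became 98 with DESeq2, 113 without the block and 114 at 10 Tac2 UMIs. Against Crh and Wif1 neurons, the 122 became 18, 43 and 60, in that order, and 58 (without library 1) to 121 with 1 library left out (75 without library 2, 80 without library 4). For members with and without Ebf1 or Spink8, the 26 became 2 with DESeq2, 43 with no filter, 10 without the block, 8 at 800 genes per barcode, 41 with doublet calls removed, 4 at 10 Tac2 UMIs, 5 without Vip cells, and 7 (without library 2) to 35 with 1 library left out. The member share of 8.14% became 1.89% with an Ebf1 or Spink8 UMI required and 3.43% at 10 Tac2 UMIs. Depth limits the rarer genes: a library of Tac2 neurons held as few as 102368 UMIs.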
